A study of Mus musculus with 8 samples.

Results

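Striatal projection neurons are the medium spiny neurons of the striatum, and 9 genes that mark them are described here in RNA of the mouse corpus callosum. The genes were chosen by name, as *Drd1*, *Drd2*, *Ppp1r1b*, *Penk*, *Tac1*, *Adora2a*, *Rgs9*, *Pde10a*, and *Gpr6*, and all 9 were found among the 25239 genes of the deposited table and among the 18123 genes tested. The corpus callosum is the tract of myelinated axons that joins both hemispheres. Bilateral common carotid artery stenosis (BCAS) narrows both common carotid arteries with microcoils and lowers blood flow to the brain, and the sham operation leaves out the coils. The 8 libraries came from male C57BL/6 mice (C57BL/6J in the methods), 8 to 12 weeks old, that were wild type (label WT) or carried the constitutive *Trpa1* -/- genotype (label TRPA1-KO), which removes the cation channel TRPA1 from every cell and not from 1 cell type. Each label had 1 sham library from day 14 and 1 BCAS library each from days 7, 10, and 14. Since a label had only 1 library per day, the 3 BCAS days of a label stand in as replicates, and their spread holds differences between days and between animals.

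The libraries held 7896071 to 12952093 reads on genes, recovered from the deposited values, and 3 reads correspond to 0.235 to 0.378 CPM, the deposited unit of reads per gene scaled to the library size. The targeted gene went against its labels. *Trpa1* had 1 read in the sham library labelled WT and 0 reads in each of the 3 BCAS libraries labelled WT. The upper limits of the 95% Clopper-Pearson intervals for these 0 reads were 0.328, 0.465, and 0.405 CPM on days 7, 10, and 14. Under the label TRPA1-KO it had 10 reads in the sham library and 11, 3, and 7 reads on the same days. The knockout removes part of the gene and the values count whole genes, so these reads do not decide the genotype, and the libraries are named by their labels throughout. Both day 7 libraries also stood apart in transcripts made mainly in liver. *Alb*, the serum albumin gene, had 483 reads on BCAS day 7 under the label WT and 51 under the label TRPA1-KO, against 0 to 4 in the other 6 libraries. The major urinary protein genes, 19 near-identical copies summed, had 1698 and 236 reads on day 7 against 5 to 72 elsewhere, and *Ttr*, the transthyretin gene that the choroid plexus also uses, 50 and 16 against 0 to 7. The globin genes of red blood cells varied widely, with *Hbb-bs* at 10 and 2 reads on day 7, 3 on day 14 under the label WT, and 34 to 322 in the other 5. Results are given below with and without the day 7 libraries.

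Medium spiny neurons are GABAergic and make up most neurons of the striatum, the input nucleus of the basal ganglia that lies beneath the corpus callosum. Those of the direct pathway carry the D1 dopamine receptor and release substance P, and those of the indirect pathway carry the D2 dopamine receptor and an adenosine receptor and release enkephalin. Dopamine raises cyclic AMP through D1 and lowers it through D2, and both kinds of neuron share a set of proteins that pass on or end the cyclic AMP signal. The cell bodies of these neurons lie in gray matter, not in the callosal tract. In tissue RNA, fewer cells of a type and less RNA per cell cannot be told apart.

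The levels of the 9 genes show whether they were detected, and do not tell which cells the RNA came from. None of the 9 genes was near 0 in any library, and they gave between 59 reads (*Gpr6*, BCAS day 7 under the label TRPA1-KO) and 5787 reads (*Pde10a*, sham under the label TRPA1-KO). Summed over the 9 genes, the level was 1470.1 CPM in sham under the label WT, then 763, 1109, and 1000.4 CPM on BCAS days 7, 10, and 14. In the libraries labelled TRPA1-KO the sums were 2012 CPM in sham and 845, 1329.6, and 1328 CPM on the same days. Both day 7 libraries lay lowest and both sham libraries highest, and the range corresponds to 0.0790% to 0.201% of all reads on genes.

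The promoters of 4 of the genes are shown because they stand for both pathways. *Drd1* and *Tac1* stand for the direct pathway, and *Drd2* and *Gpr6* for the indirect. RefSeq entries on GRCm38.p6 were found for 6 of the 9 genes, with 8 start sites, and not for *Ppp1r1b*, *Penk*, and *Adora2a*. Each line gives the 250 bases before the start, 5′ to 3′ on the strand of the gene, and capitals mark the motifs searched, TGACGTCA (the cyclic AMP response element), TGACG (its shorter form, contained in TGACGTCA), GGGCGG (the GC box), and TATAAA (the TATA box), on both strands. The windows are chr13:54055659-54055908 (minus strand) for *Drd1*, chr6:7554811-7555060 (plus) for *Tac1*, chr9:49340153-49340402 (plus) for *Drd2*, and chr10:41072291-41072540 (minus) for *Gpr6*.
Drd1: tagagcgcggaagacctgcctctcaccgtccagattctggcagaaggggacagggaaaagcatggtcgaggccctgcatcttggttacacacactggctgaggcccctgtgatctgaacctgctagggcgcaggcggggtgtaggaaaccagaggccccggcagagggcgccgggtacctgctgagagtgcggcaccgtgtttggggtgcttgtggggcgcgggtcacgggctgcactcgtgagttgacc
Tac1: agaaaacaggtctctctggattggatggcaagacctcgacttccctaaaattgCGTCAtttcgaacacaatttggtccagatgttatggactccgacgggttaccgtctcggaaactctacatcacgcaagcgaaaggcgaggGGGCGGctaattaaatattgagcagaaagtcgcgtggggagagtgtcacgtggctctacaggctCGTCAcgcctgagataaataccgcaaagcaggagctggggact
Drd2: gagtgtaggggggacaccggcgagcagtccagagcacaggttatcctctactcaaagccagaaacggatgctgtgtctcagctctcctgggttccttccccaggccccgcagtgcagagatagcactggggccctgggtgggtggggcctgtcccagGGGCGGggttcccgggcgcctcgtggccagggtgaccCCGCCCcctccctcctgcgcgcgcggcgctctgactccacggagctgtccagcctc
Gpr6: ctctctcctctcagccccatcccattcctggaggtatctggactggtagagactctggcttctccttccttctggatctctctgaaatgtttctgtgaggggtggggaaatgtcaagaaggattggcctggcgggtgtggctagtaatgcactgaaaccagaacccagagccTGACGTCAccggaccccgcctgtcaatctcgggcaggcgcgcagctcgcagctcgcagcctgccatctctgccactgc

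The full element TGACGTCA was in 1 of the 8 windows, that of *Gpr6*, 78 bases before the start, and in 1.55% of the 32851 promoter windows of the same length. TGACG was in 2 of the 8 windows against 17.8% of all windows: *Tac1* held it as CGTCA, its letters on the other strand, 197 and 43 bases before the start, and in *Gpr6* it was part of the full element. GGGCGG was in 5 of the 8 windows against 32.7% of all, among them *Drd2* with 2 matches and *Tac1* with 1. The *Drd1* window shown is 1 of 2 and holds no match of any motif, and the other (chr13:54054781-54055030) holds the GC box. TATAAA was in 1 of the 8, that of *Rgs9*, against 12.4% of all. These are matches of letters, and no single motif was in every window.

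The receptors and peptide of the direct pathway come first. *Drd1* (chr13:54051183-54055705, minus strand), the D1 dopamine receptor, was at 57.1 CPM in sham under the label WT and at 32.1, 44.7, and 40.3 CPM on BCAS days 7, 10, and 14. Under the label TRPA1-KO it was at 73.7 CPM in sham and at 35.0, 55.0, and 52.0 CPM on those days. All 6 BCAS libraries lay below both sham libraries, and within each label day 7 was lowest. *Tac1* (chr6:7554879-7565834, plus strand), the precursor of substance P, was at 52.6 CPM in the sham library and 23.8, 35.5, and 33.1 CPM on days 7, 10, and 14 under the label WT. In the libraries labelled TRPA1-KO its levels were 55.5 CPM in sham and 28.4, 43.1, and 45.9 CPM. The 2 sham libraries were closest to each other for this gene, at 54.1 ± 2.09 CPM (SD, n = 2), and again every BCAS library lay below them.

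Among the genes of the indirect pathway, *Drd2* (chr9:49340627-49408177, plus strand), the D2 dopamine receptor, was at 35.7 CPM in sham and at 20.4, 29.7, and 29.0 CPM on days 7, 10, and 14 under the label WT. In the libraries labelled TRPA1-KO it was at 64.2, 19.9, 42.1, and 40.9 CPM in the same order. It had the largest gap between the sham libraries on the log2(CPM + 1) scale, 0.83 lower under the label WT, and the BCAS libraries labelled TRPA1-KO from days 10 and 14 lay above the sham library labelled WT. *Adora2a* (chr10:75316877-75334784, plus strand) encodes the adenosine receptor A2a, which opposes D2 signaling in these cells. Its levels were 55.7, 28.7, 42.3, and 33.8 CPM under the label WT and 78.3, 29.4, 56.0, and 50.4 CPM under the label TRPA1-KO, in the order sham and days 7, 10, and 14. The day 7 libraries differed by less than their counting intervals, 25.7 to 32.0 CPM and 25.9 to 33.2 CPM (95% Clopper-Pearson, counting error only), and BCAS day 10 under the label TRPA1-KO equaled the sham library labelled WT within counting error.

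*Gpr6* (chr10:41069977-41072285, minus strand), an orphan receptor of indirect-pathway neurons that raises cyclic AMP without a ligand, had the lowest counts. It was at 16.1, 5.96, 8.95, and 11.1 CPM under the label WT and at 22.4, 6.57, 16.7, and 11.9 CPM under the label TRPA1-KO, in the same order. Its highest level was 3.77 times its lowest, the widest range of the 9 genes, and with 59 to 234 reads it also had the widest counting error, for example 4.62 to 7.57 CPM on day 7 under the label WT. *Penk* (chr4:4133531-4138819, minus strand), the precursor of the enkephalins, was at 214, 99.0, 149.6, and 141 CPM under the label WT and at 323, 144, 207, and 187 CPM under the label TRPA1-KO. It was the only member for which the day 7 libraries were not both below the other 6, because day 14 under the label WT (141 CPM) lay just under day 7 under the label TRPA1-KO (144 CPM). An antisense transcript, *A830012C17Rik*, overlaps its exons in the annotation, and reads from the 2 strands cannot be told apart if the counting ignored strand.

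The remaining genes are shared by both pathways. *Ppp1r1b* (chr11:98348404-98357796, plus strand) encodes DARPP-32, which inhibits protein phosphatase 1 once protein kinase A has phosphorylated it. It was at 412, 233, 329, and 287 CPM under the label WT and at 542, 252, 379.8, and 362 CPM under the label TRPA1-KO, in the order sham and days 7, 10, and 14, so all BCAS libraries lay below both sham libraries. *Rgs9* (chr11:109225355-109298129, minus strand) encodes a GTPase-activating protein that shortens G protein signals from dopamine and opioid receptors. Its levels were 224, 111, 172, and 136 CPM under the label WT and 299, 112, 196, and 191 CPM under the label TRPA1-KO, and the day 7 libraries were nearly equal. *Pde10a* (chr17:8525372-8986648, plus strand), the phosphodiesterase that breaks down cyclic AMP and cyclic GMP in spiny neurons, was at 403, 209, 297, and 289 CPM under the label WT and at 555, 218, 334, and 387 CPM under the label TRPA1-KO. It too had every BCAS library below both sham libraries, which held for 6 of the 9 genes against 3.59% of all genes tested.

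**Figure D1:**
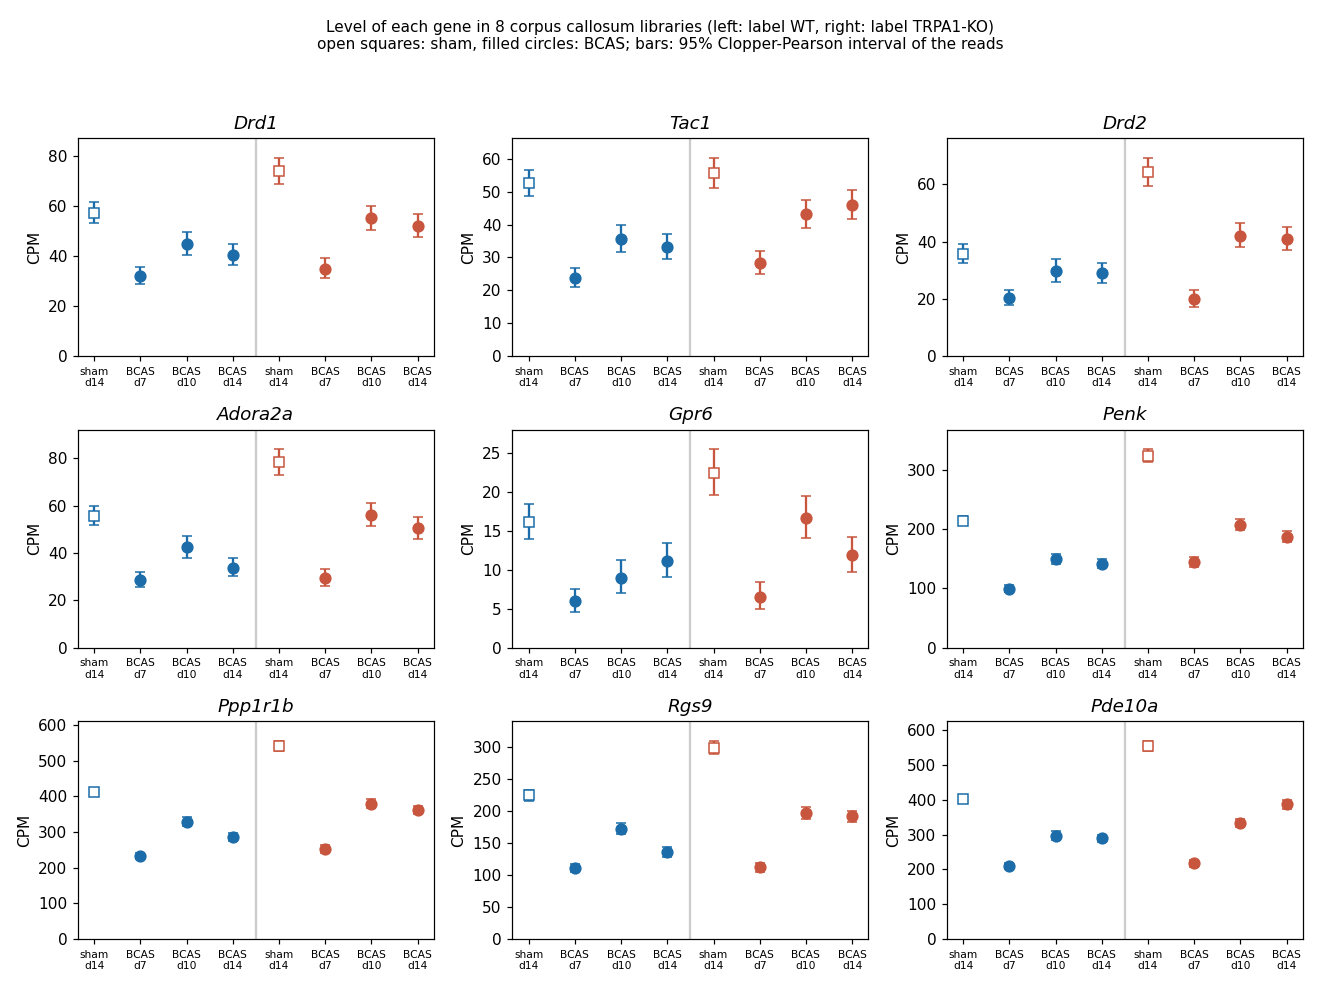
Level of each of the 9 genes (CPM, axes starting at 0) in the 8 libraries, 4 labelled WT on the left and 4 labelled TRPA1-KO on the right of each panel. Open squares are sham, filled circles are BCAS, and bars are 95% Clopper-Pearson intervals of the reads. The sham library labelled TRPA1-KO is the highest point in all 9 panels, and a day 7 library is the lowest in all 9.

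Divided by exon length, the mean level over the 8 libraries was highest for *Ppp1r1b* (119 CPM per kb) and *Penk* (112 CPM per kb). *Rgs9* (28.2) and *Pde10a* (26.2 CPM per kb) followed, then *Adora2a* (15.3), *Drd2* (13.8), *Drd1* (13.4), *Tac1* (11.7), and *Gpr6* (6.97 CPM per kb). Neighbors in this order kept it in 8 of 8 libraries for *Penk* over *Rgs9*, *Pde10a* over *Adora2a*, *Drd1* over *Tac1*, and *Tac1* over *Gpr6*. The order did not hold in every library for *Ppp1r1b* over *Penk* (6 of 8), *Rgs9* over *Pde10a* (6 of 8), *Adora2a* over *Drd2* (7 of 8), and *Drd2* over *Drd1* (4 of 8), so the D1 and D2 receptor genes did not differ in level per length beyond their spread.

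Across libraries the 9 genes kept nearly the same order. The sham library labelled TRPA1-KO was highest for 9 of 9 genes, against 12.5% of all genes tested, and both day 7 libraries lay below each of the other 6 for 8 of 9, against 4.44%. These patterns were noticed in the same values and are given as a description. On the log2(CPM + 1) scale, the median deviation of the 9 genes from their own mean over the libraries was 0.32 in sham and -0.62, -0.11, and -0.22 on days 7, 10, and 14 under the label WT. Under the label TRPA1-KO it was 0.80, -0.56, 0.22, and 0.16. Each gene correlated with the mean of the other 8 over the 8 libraries with a Pearson r between 0.96 (*Gpr6*) and 0.999 (*Drd1*). This is a description over libraries that differ in operation, day, and depth. Their standard deviations over the libraries placed all 9 within the top 6.37% of the 15152 genes whose mean was 1 CPM or more, from rank 291 (*Gpr6*) to rank 965 (*Drd1*).

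The first comparison asks how the libraries after BCAS stood against sham. Under the label WT, all 9 genes were at lower levels in the 3 BCAS libraries than in either sham library, by a median of 0.86 on the log2(CPM + 1) scale (over all genes, 50.4% were lower on average). *Penk* had the smallest p: its mean was 130.0 ± 27.2 CPM (SD, n = 3) after BCAS and 268 ± 77.1 CPM (SD, n = 2) in sham, a log2 difference of -1.03 with a standard error of 0.21. *Gpr6* had the largest difference (-1.09, SE 0.33) and *Drd1* the smallest (-0.73, SE 0.19). By limma, 9 of 9 genes had a p under 0.05 before adjustment, against 5.45% of all genes tested (3.01% in the lower direction), with p from 0.00040 for *Penk* to 0.019 for *Drd2*.

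None of the 9 passed after adjustment over all genes tested, with limma adjusted p between 0.73 and 0.88, and no gene of the table did by limma. The BCAS group lay below sham without overlap for 9 of 9, as it did for 11.0% of all genes. The two-sided exact permutation test gave p = 0.2 for each, the smallest that 3 libraries against 2 allow. By DESeq2 on the recovered reads, *Tac1* (adjusted p = 0.044) and *Adora2a* (adjusted p = 0.035) passed, as 0.133% of all genes did, and by edgeR none did. Without the sham library labelled TRPA1-KO, which was highest for every member, 5 of the 9 had a limma p under 0.05 before adjustment, against 1.97% of all genes. Without both day 7 libraries 9 of 9 did, against 5.76%, and the median difference was -0.69.

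In the libraries labelled TRPA1-KO, the 9 genes were also lower on average after BCAS than in sham, by a median of 0.57 on the log2(CPM + 1) scale (over all genes, 50.6% were lower). These differences use the same 2 sham libraries as those above. The differences ran from -0.74 (*Gpr6*, SE 0.33) to -0.47 (*Drd1*, SE 0.19), with *Rgs9* at -0.68 (SE 0.24), *Pde10a* at -0.63 (SE 0.23), *Adora2a* at -0.59 (SE 0.25), *Penk* at -0.57 (SE 0.21), *Drd2* at -0.54 (SE 0.31), *Ppp1r1b* at -0.53 (SE 0.19), and *Tac1* at -0.48 (SE 0.20). All but *Drd2* (limma p = 0.11, exact permutation p = 0.6) had a limma p under 0.05 before adjustment, 8 of 9 against 2.74% of all genes tested (1.67% in the lower direction). Each limma adjusted p was 1, and 0.00552% of all genes passed after adjustment.

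For 6 of the 9 the BCAS group lay below sham without overlap, as it did for 10.2% of all genes. The exceptions were *Drd2*, *Adora2a*, and *Gpr6*. *Penk*, of the indirect pathway like the exceptions, did not overlap. The overlap of *Adora2a* (day 10 at 56.0 CPM, sham labelled WT at 55.7 CPM) and *Gpr6* (16.7 and 16.1 CPM) was within counting error. The exact permutation test gave p = 0.2 for the 6, the smallest possible. This count rested on single libraries: 0 of the 9 had a limma p under 0.05 without the sham library labelled TRPA1-KO, against 1.05% of all genes, and 1 without BCAS day 7 with that label, against 1.79%. Without both day 7 libraries 5 had one, against 3.05%. Both sham libraries were collected on day 14, so against sham the day 7 and day 10 libraries differ in day as well as in operation. At day 14 alone, with 1 library on each side and no test, the median of the 9 genes was 0.52 lower after BCAS than in sham under the label WT and 0.63 lower under the label TRPA1-KO.

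**Figure D2:**
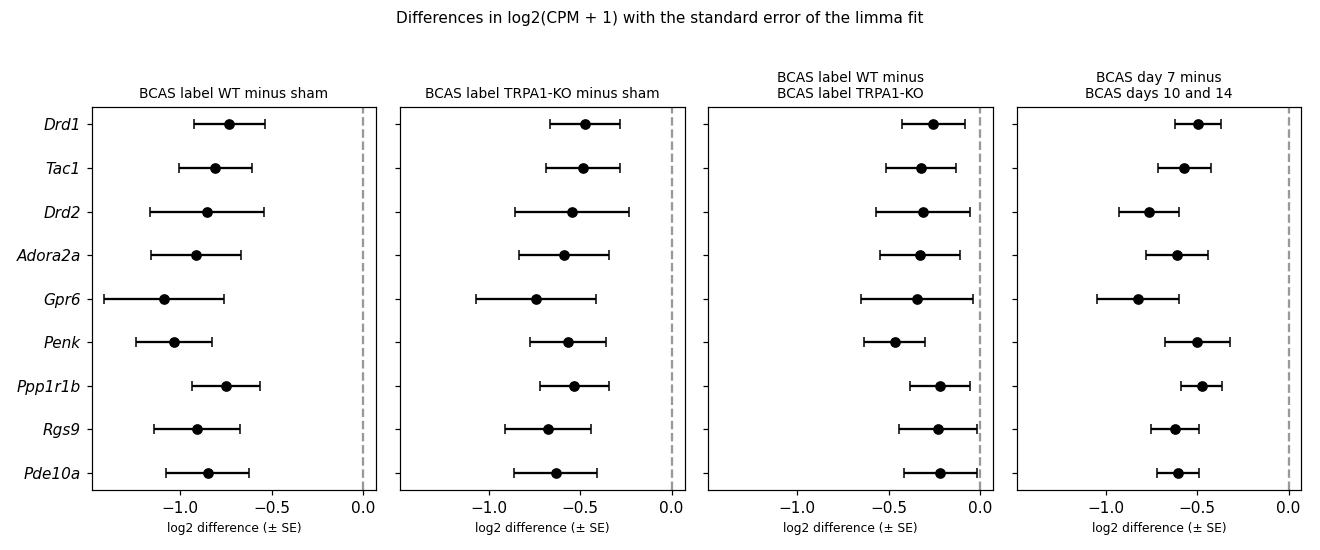
Differences of the 9 genes on the log2(CPM + 1) scale in 4 comparisons (points), with the standard error of the limma fit (bars) and a dashed line at 0. All points lie below 0, with medians of -0.86, -0.57, -0.31, and -0.60 from left to right, and the last comparison was chosen after the values were seen.

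The comparison between the labels after BCAS is the one that the study's design turns on. All 9 genes were lower on average in the 3 BCAS libraries labelled WT than in the 3 labelled TRPA1-KO, by a median of 0.31 on the log2(CPM + 1) scale, where 49.7% of all genes were lower. The groups overlapped for all 9, and 4.73% of all genes lay lower without overlap. The largest difference was that of *Penk*, with 130.0 ± 27.2 CPM against 179 ± 32.0 CPM (SD, n = 3 each), a log2 difference of -0.47 with a standard error of 0.17. It was the only member with a limma p under 0.05 before adjustment (limma p = 0.018, two-sided exact permutation p = 0.2, where the smallest possible is 0.1), 1 of 9 against 4.20% of all genes tested (1.80% in the lower direction). Its limma adjusted p was 0.98, as for the other 8, and 0.0166% of all genes passed after adjustment. The other differences lay between -0.22 (*Pde10a*, SE 0.20) and -0.35 (*Gpr6*, SE 0.31), with two-sided exact permutation p from 0.3 to 0.6. Without the library labelled TRPA1-KO from day 7, all 9 had a p under 0.05 before adjustment, against 3.39% of all genes. Without day 7 of the label WT none had, nor without day 10 or day 14 of the label TRPA1-KO, against 3.40%, 1.79%, and 4.65%. Without both day 7 libraries 8 had, against 4.30%. With the day as a block 6 had, against 1.39% of all genes in the lower direction (lowest limma adjusted p = 0.57).

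Matched by operation and day, the library labelled WT was the lower of the pair in 4 of 4 pairs for every gene except *Drd2*, which was lower in 3 of 4. Over all genes tested, 5.64% were lower in each of the 4 pairs. The median of the 9 genes was 0.45 lower under the label WT in sham, 0.11 lower on day 7, 0.29 lower on day 10, and 0.42 lower on day 14. The gap between the labels was therefore present in the sham pair too, and smallest in the day 7 pair. In all 8 libraries, 4 against 4, the 9 genes were lower under the label WT by a median of 0.28 (49.3% of all genes were lower). None had a limma p under 0.05 before adjustment, against 3.94% of all genes tested (1.83% in the lower direction, and 0.0497% after adjustment). The groups overlapped for all 9, where 1.15% of all genes lay lower without overlap, and exact permutation p lay between 0.26 and 0.51, where 0.029 is the smallest possible. By edgeR and by DESeq2 the count before adjustment was also 0. These fits left the matching by operation and day aside. With operation and day as a block, 9 of 9 had a limma p under 0.05 before adjustment, against 1.88% of all genes in the lower direction. None of the 9 passed after adjustment (lowest limma adjusted p = 0.055).

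A comparison by day was added after the values were seen. The 2 BCAS libraries of day 7 were lower than the 4 of days 10 and 14 for all 9 genes on average, by a median of 0.60 on the log2(CPM + 1) scale (over all genes, 48.1% were lower). *Pde10a* had the smallest limma p, with 213 ± 6.25 CPM (SD, n = 2) on day 7 and 327 ± 44.8 CPM (SD, n = 4) on days 10 and 14, a log2 difference of -0.60 with a standard error of 0.12. *Rgs9* was at 111 ± 0.71 CPM and 174 ± 27.4 CPM in these groups, and *Drd2* at 20.1 ± 0.31 CPM and 35.4 ± 7.02 CPM. All 9 had a limma p under 0.05 before adjustment, against 5.34% of all genes tested (2.49% in the lower direction), with limma adjusted p from 0.54 to 0.92. Day 7 lay below days 10 and 14 without overlap for 8 of 9, as it did for 6.59% of all genes. The exact permutation p of those 8 was 0.13, the smallest that 2 against 4 allow. By DESeq2, *Pde10a* (adjusted p = 0.00095), *Rgs9* (0.0041), *Ppp1r1b* (0.022), and *Drd2* (0.026) passed, as 0.143% of all genes did. Since the comparison was chosen because these libraries stood low, its p-values are no independent evidence of the gap. The day 7 libraries were also those with the *Alb* and major urinary protein reads given above, most of them under the label WT, while the 9 genes were about equally low in both (median deviations of -0.62 and -0.56), and the part of those transcripts or of their source in the low levels was not tested.

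Levels of the direct- and indirect-pathway genes varied together across the libraries, with a balance that depended on the genes compared. The mean log2 level of *Drd2*, *Adora2a*, and *Gpr6* stood below that of *Drd1* and *Tac1* in every library, by 0.39 in the sham library labelled TRPA1-KO and by 0.95 on day 7 with the same label. These means are not divided by exon length. Per kb, *Adora2a* (15.3 CPM) and *Drd2* (13.8 CPM) averaged above *Drd1* (13.4 CPM) and *Tac1* (11.7 CPM), and *Gpr6* (6.97 CPM) was lowest. The sign of the gap therefore does not rank the pathways. In the 4 libraries labelled WT this gap was narrower in range, from 0.69 to 0.81. *Drd2* reads per *Drd1* read ran from 0.570 on day 7 to 0.870 in sham under the label TRPA1-KO. *Penk*, which is not in that mean, gave another order: its ratio to *Tac1* was 5.82 in sham and 5.07 on day 7 under the label TRPA1-KO, the 2 highest, and 4.07 to 4.79 in the other 6 libraries. The ratio of *Ppp1r1b* to *Drd1* stayed between 6.91 and 7.35 while the highest level was 2.32 and 2.30 times the lowest for these genes.

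**Figure D3:**
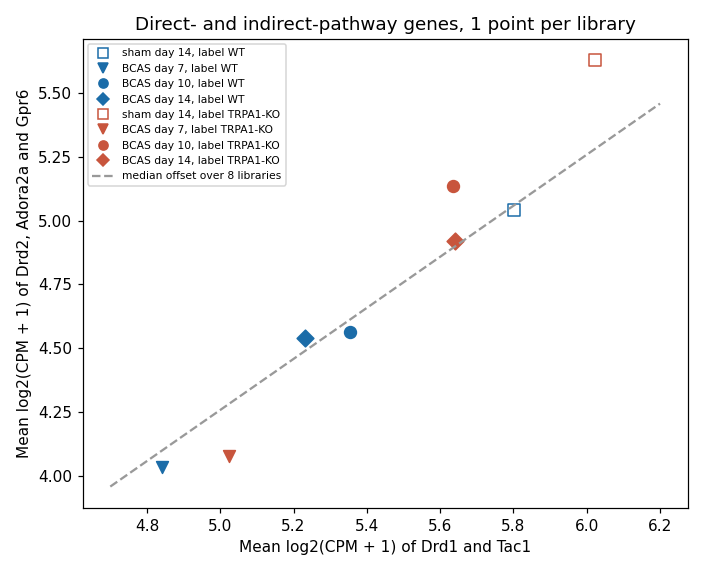
Mean log2(CPM + 1) of the direct-pathway genes Drd1 and Tac1 (x axis) and of the indirect-pathway genes Drd2, Adora2a, and Gpr6 (y axis), 1 point per library, with a dashed line of slope 1 at the median offset. The sham library labelled TRPA1-KO lies farthest above the line (offset -0.39) and day 7 of that label farthest below it (offset -0.95).

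Other genes of spiny neurons were read from lists, some of which share genes. Of 20 further genes of both kinds of spiny neuron, 19 were lower in BCAS under the label WT than in sham (median -0.62, against -0.00 for all genes). Each of these 19 had a limma p under 0.05 before adjustment, against 3.01% of all genes in that direction. In BCAS under the label TRPA1-KO 5 were lower at such a p, against 1.67% of all genes (median -0.35). None passed after adjustment. *Rxrg*, a retinoid X receptor, was at 24.3 CPM in sham and 10.1, 14.5, and 14.6 CPM on days 7, 10, and 14 under the label WT, and at 26.3, 8.01, 22.2, and 23.2 CPM under the label TRPA1-KO. Both day 7 libraries were its 2 lowest, as for 16 of the 20, against 4.44% of all genes. Between the labels after BCAS 2 of the 20 had a limma p under 0.05 before adjustment, against 4.20% of all genes. They were *Scn4b*, a sodium channel subunit (log2 difference -0.36, SE 0.13), and *Ankrd63* (-0.49, SE 0.18), each with a limma adjusted p of 0.98.

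The lists particular to 1 pathway varied less. Of 6 further direct-pathway genes 3 were lower with a limma p under 0.05 in BCAS under the label WT against sham, and of 4 further indirect-pathway genes 1 was. The share of all genes was 3.01%. *Chrm4*, the M4 muscarinic receptor of direct-pathway neurons, did not follow the 9 genes: it was at 32.3, 32.2, 42.7, and 31.6 CPM under the label WT and at 39.1, 51.1, 49.4, and 37.7 CPM under the label TRPA1-KO, so day 7 under the label TRPA1-KO was its highest library. *Pdyn*, the precursor of dynorphin in direct-pathway neurons, lay between 19.8 and 28.8 CPM. *Gpr52*, a receptor of indirect-pathway neurons, was at 29.1, 17.8, 21.4, and 20.6 CPM under the label WT and at 38.6, 17.7, 27.9, and 30.5 CPM under the label TRPA1-KO, in the same order as above. Day 7 was its lowest library within each label.

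In the wider pathway of dopamine and cyclic AMP signaling, 9 of 30 genes were lower and 0 higher at a limma p under 0.05 in BCAS under the label WT against sham, and 2 were lower and 1 higher under the label TRPA1-KO. Over all genes, 3.01% and 1.67% were lower at such a p. Among them *Adcy5*, the main adenylyl cyclase of spiny neurons, was at 394, 241, 309, and 316 CPM under the label WT and at 493, 257, 393, and 403 CPM under the label TRPA1-KO. Between the labels after BCAS 3 of the 30 had a limma p under 0.05 before adjustment, all lower under the label WT, against 4.20% of all genes in either direction: *Prkar2b*, a regulatory subunit of protein kinase A (-0.28, SE 0.10), *Chrm4* (-0.37, SE 0.14), and the kinase gene *Cdk5* (-0.18, SE 0.08), each with a limma adjusted p of 0.98. Of 11 peptide processing enzymes and peptide receptors, 0 had a limma p under 0.05 before adjustment between the BCAS labels or against sham.

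Markers of other cells stood beside these values as follows. For 10 genes of neurons of any kind the summed level was 6745 to 8928 CPM, and 0 of 10 had a limma p under 0.05 before adjustment in any comparison. *Snap25*, a synaptic vesicle fusion protein, was at 2110 CPM on day 7 under the label WT and at 2945 CPM on day 7 under the label TRPA1-KO, its lowest and highest libraries, although both day 7 libraries were low for the 9 genes. For 12 genes of cortical excitatory neurons the sum was 1608 to 2074 CPM, with the 2 extremes in the BCAS libraries labelled WT. At a limma p under 0.05 before adjustment 2 of the 12 were higher and 0 lower in BCAS under the label WT than in sham. Under the label TRPA1-KO 1 was higher and 0 lower. The shares of all genes in either direction were 5.45% and 2.74%. For 7 genes of GABAergic neurons the sum was 659 to 735 CPM. Of these 7, 4 were highest in the sham library labelled TRPA1-KO, against 12.5% of all genes. Against sham 1 of the 7, *Dlx6*, had a limma p under 0.05 before adjustment, under the label WT (log2 difference -0.64, SE 0.21, limma adjusted p = 0.87). The share of all genes lower at such a p was 3.01%. *Gad1* and *Gad2*, which make GABA in spiny neurons as in other inhibitory neurons, lay between 314 and 351 CPM and between 176 and 224 CPM, and *Gad2* but not *Gad1* was highest in that sham library and lowest in a day 7 library.

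The tissue label was checked on *Mbp*, the myelin basic protein gene, which lay between 5129 and 7246 CPM. It also marks oligodendrocytes of gray matter, so it does not tell the tract from neighboring tissue. Mature oligodendrocyte genes, 10 in all, summed to 16044 and 17610 CPM in the sham libraries labelled WT and TRPA1-KO and to between 13137 and 14842 CPM in the 6 BCAS libraries. They were therefore higher in both sham libraries, as the 9 genes were, and 8 of 10 were highest in the sham library labelled TRPA1-KO. The share of all genes highest there was 12.5%. At a limma p under 0.05 before adjustment, 5 of 10 were lower in BCAS under the label WT than in sham, against 3.01% of all genes. Under the label TRPA1-KO 4 of 10 were, against 1.67%. *Mog*, a myelin protein gene, was at 168, 154, 148, and 150.2 CPM under the label WT and at 185, 98.4, 115, and 104 CPM under the label TRPA1-KO, in the order sham and days 7, 10, and 14. It was the only gene of the table to pass after adjustment in label TRPA1-KO against sham (-0.73, SE 0.08, limma adjusted p = 0.046). Microglial genes, 6 in all, summed to 577 CPM on day 7 and 360 CPM on day 10 under the label WT and to between 206 and 289 CPM in the other 6 libraries, so the day 7 libraries were at opposite ends of that range. Astrocytic *Gfap* was at 200.4, 1415, 1060.0, and 157 CPM under the label WT and at 234, 167, 169, and 427 CPM under the label TRPA1-KO. The part of tissue makeup or of the dissection in the levels of the 9 genes was not tested.

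**Figure D4:**
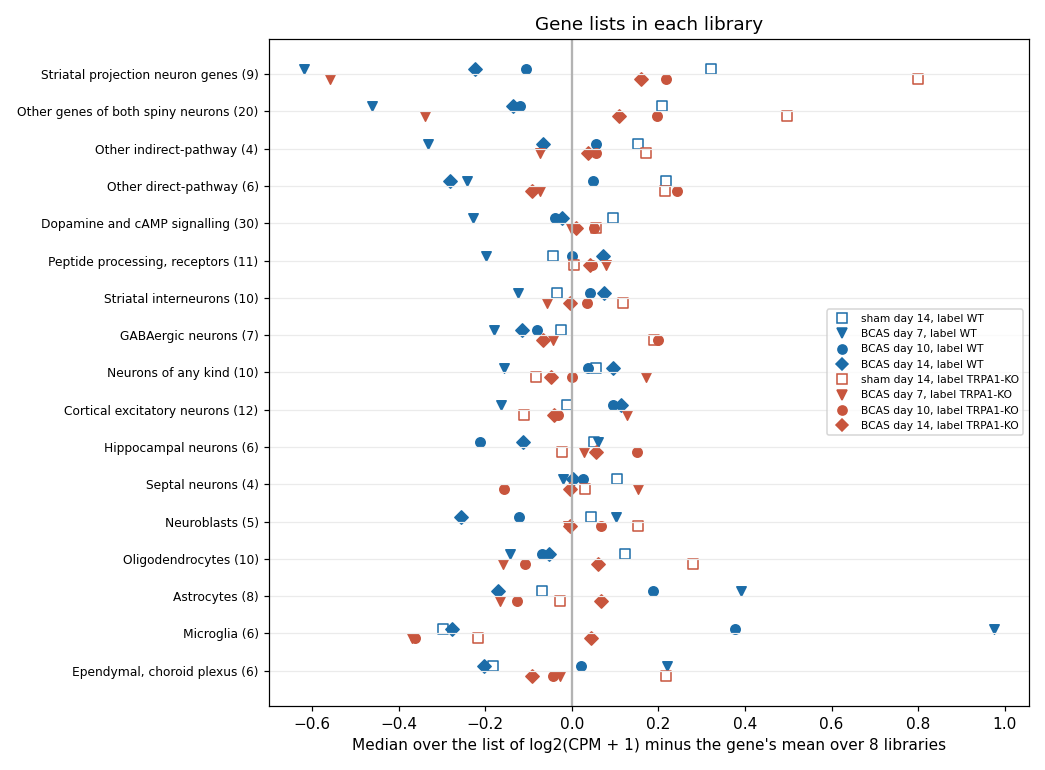
Median over each gene list of log2(CPM + 1) minus the mean of the gene over the 8 libraries (x axis), for the 9 striatal projection neuron genes and 16 lists (rows, with the number of genes), 1 symbol per library. The 9 genes span -0.62 to 0.80, the 20 other genes of both spiny neurons -0.46 to 0.50, and neurons of any kind -0.16 to 0.17.

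The genes most like the 9 were sought by the Pearson correlation of their log2(CPM + 1) over the 8 libraries with the mean standardized level of the 9, among 15143 other genes whose mean was 1 CPM or more. Among the 10 closest were *Pde1b* (r = 0.995, Spearman rho = 1), *1700003D09Rik* (0.995), *Sh3rf2* (0.992), *Thsd7a* (0.989), *Syndig1l* (0.988), *C030029H02Rik* (0.987), *Rarb* (0.987), *Adcy5* (0.987), and *Doc2b* (0.986). *1700003D09Rik* overlaps exons of *Ppp1r1b* on the opposite strand, and reads from the 2 strands cannot be told apart if the counting ignored strand. The phosphodiesterase gene *Pde1b* was at 348, 208, 265, and 249 CPM under the label WT and at 422, 229, 332, and 311 CPM under the label TRPA1-KO, and *Syndig1l* at 53.2, 24.0, 35.3, and 35.4 CPM and at 73.5, 28.5, 54.1, and 53.0 CPM. A correlation above 0.9 was found for 114 of the 15143 genes (0.753%) and for 18 of the 20 other genes of both spiny neurons. These correlations are descriptions, because the 8 libraries differ in operation, day, and depth.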

How the data were processed

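Polyadenylated RNA of the corpus callosum was sequenced. Per the labels, the authors mapped reads to mm10 (GRCm38) with HISAT2, counted them per gene with featureCounts of Subread, and scaled them with edgeR. The annotation and the strand setting are not given in the sources used here. The deposited values are a signal per gene symbol, CPM on effective library sizes, and sum to 966202 to 1022161 per library. Whole reads were recovered for 100% of values (tolerance 0.01 reads), and the 95% Clopper-Pearson intervals and the floor of 3 reads come from them and cover counting error only.

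Tests used log2(CPM + 1) and limma version 3.58.1 in R version 4.3.3 (trend), two-sided, over the 18123 genes whose mean reached 0.1 CPM, with Benjamini-Hochberg adjustment over all of them. The log2(CPM + 1) scale understates differences of low genes such as *Gpr6*. BCAS labels were compared in the 6 BCAS libraries and each BCAS group with both sham libraries in 1 fit of all 8. edgeR version 4.0.16 and DESeq2 version 1.42.0 on the recovered reads, another pseudocount (0.1), other filters, scalings, blocks, and left-out libraries were alternatives. The fits were also run on simulated counts for the comparison of the BCAS labels. Those counts held no differences between days, so the run checked the code and not the error rates in these libraries.

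The members and lists were chosen with earlier results of these data known. Named genes were all members, up to 3 genes per list by smallest p between the BCAS labels, and the 10 most alike, of which 1 is not reported here. *Rxrg*, *Pdyn*, *Adcy5*, *Snap25*, *Gad1*, *Gad2*, *Mbp*, *Gfap*, *Alb*, *Ttr*, *Hbb-bs*, and the major urinary protein genes were named outside that rule, after their values were seen. Gene positions and exon lengths are from GENCODE M21 on GRCm38, and promoters from RefSeq GRCm38.p6. No per-sample column was left unused, and the deposited table was the only file.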

Additional observations from a re-analysis of the deposited data

How the results depend on the processing

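The median log2 difference of the 9 genes stayed below 0 in every comparison and alternative except the fit with their own mean level as a covariate, where 4 of 9 differences were below 0. The medians over fits that left out 1 library ran from -0.53 to -0.13 between the BCAS labels, from -1.11 to -0.67 in BCAS label WT against sham, from -0.86 to -0.35 in BCAS label TRPA1-KO against sham, from -0.52 to -0.13 between all libraries of each label, and from -0.66 to -0.52 between the days. Counts of members with a limma p under 0.05 before adjustment moved more. Leaving out 1 library, they ran from 0 to 9 between the BCAS labels, from 5 to 9 in label WT against sham, from 0 to 8 in label TRPA1-KO against sham, from 0 to 8 between all libraries of each label, and from 8 to 9 between the days. The matching counts over all genes ran from 325 to 1846, 357 to 2013, 191 to 735, 490 to 1064, and 653 to 2801. The lowest and highest counts came without day 10 of the label TRPA1-KO and day 14 of the label WT in the first, and without the sham library labelled TRPA1-KO and day 14 of the label WT in the second. Between all libraries of each label, the 8 members came without day 7 of the label TRPA1-KO, and 2 had such a p without the sham library labelled WT.

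Between the BCAS labels, 0 members had such a p with no filter on low values (952 genes in all). Centered on genes of neurons of any kind, the counts over all genes were 473 between the BCAS labels (761 as reported), 390 and 190 against sham (988 and 496), 250 between all libraries of each label (714), and 511 between the days (967). In label TRPA1-KO against sham, limma's robust option left 1 member and DESeq2 called 254 genes. Without both day 7 libraries, a choice made after seeing the data, 8 members had such a p between the BCAS labels (779 genes in all), 5 in label TRPA1-KO against sham (552 genes), and 2, with 1108 genes in all, between all libraries of each label. With the mean level of the members as a covariate, also added later, 461 genes had a p under 0.05 between the BCAS labels, and 291 of them were among the 761. The causes were not tested.

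Over the 15152 genes whose mean was 1 CPM or more, the shared days did not pair the libraries. The deviations of same-day libraries correlated at -0.07, -0.00, and -0.24 on days 7, 10, and 14. These correlations do not speak for the 9 genes. On day 7 their median deviation was low under both labels, -0.62 (WT) and -0.56 (TRPA1-KO). It was -0.11 and 0.22 on day 10 and -0.22 and 0.16 on day 14, in the same order of labels. With the day as a replicate block, 6 members had a limma p under 0.05 before adjustment between the BCAS labels (lowest adjusted p = 0.57), against 1.39% of all genes in the lower direction. With operation and day as the block, 9 had one between all libraries of each label (lowest adjusted p = 0.055), against 1.88%. Depth limits *Gpr6* most. Each day has 1 library per label, and label, animal, and dissection cannot be told apart.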

Other observations

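Striatal interneurons, which are few beside the spiny neurons, were read from 10 genes. The cholinergic marker *Chat*, which makes acetylcholine, was at 3.68, 2.40, 1.76, and 2.30 CPM in sham and on BCAS days 7, 10, and 14 under the label WT. Under the label TRPA1-KO it was at 6.52, 1.45, 3.42, and 4.47 CPM, so both sham libraries lay above the BCAS libraries of their own label. *Sst*, the somatostatin gene of another interneuron class, was at 149, 122, 156, and 188 CPM and at 187, 196, 167, and 143 CPM in the same order, and did not separate sham from BCAS. Of the 10 genes, 3 were lower at a limma p under 0.05 before adjustment in BCAS under the label WT than in sham, against 3.01% of all genes. Under the label TRPA1-KO 0 were, against 1.67%. Between the labels after BCAS, *Slc18a3*, the vesicular acetylcholine transporter, was at 0.750 CPM under the label WT and 1.60 CPM under the label TRPA1-KO (log2 difference -0.60, SE 0.25, limma adjusted p = 0.98). Its level on day 14 under the label WT, 0.329 CPM, was that of 3 reads, so this difference rests on few reads. *Lhx8*, a transcription factor of cholinergic neurons, was at 0.623, 1.51, and 1.21 CPM and at 0, 0.320, and 0.624 CPM on days 7, 10, and 14 of these labels, close to the level of 3 reads, and no fold is given. *Chat* and *Sst* were named after their values were seen.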
